A study of Mus musculus with 8 samples.

Results

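The 10 genes described here encode the cytoplasmic actin filament and the proteins that lie along it or tie it together: the cytoplasmic actins Actb and Actg1, the tropomyosins Tpm1 to Tpm4, the non-muscle alpha-actinins Actn1 and Actn4, the filamin Flna and vinculin, Vcl. They were chosen by symbol from the 45777 genes of the count table, and all 10 were among the 17975 genes with enough reads for testing. RNA came from primary hepatic stellate cells of male wild-type C57BL/6 mice. One group of 4 libraries was transfected with an siRNA against PAK4, a p21-activated kinase that acts on the actin cytoskeleton (siPAK4), and the other group of 4 with a control siRNA (siControl), during stellate cell activation. The sources used here state no age, siRNA dose or time after transfection. Whether the replicates numbered 1 to 4 were separate animals, isolations or dishes is not stated either, so the p-values reflect only how far these libraries differ, possibly for technical reasons.

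Cytoplasmic beta- and gamma-actin are nearly identical proteins that polymerise into the same filaments. Tropomyosins are coiled-coil dimers that run along the filament and set which other proteins can bind it, alpha-actinins hold filaments side by side in stress fibres, filamin A ties crossing filaments into networks, and vinculin couples filaments to adhesions. Hepatic stellate cells that activate in culture or after liver injury spread, assemble stress fibres and acquire smooth muscle alpha-actin, the product of Acta2. Many actin cytoskeleton genes are targets of serum response factor (SRF), which binds a DNA element named the CArG box, and its MRTF cofactors are held inactive by actin monomers.

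Of the 10 genes, 9 had a promoter window in the RefSeq table for GRCm38.p6, the build also called mm10. The gene without a window was Actb, so its promoter was not searched for any motif. A window covers 250 bases before to 50 bases after a start used in that table, which need not be the outer end of the gene. Tpm3 has 2 windows, which makes 10 in all. The windows of Flna (chrX:74246485-74246784) and Tpm1 (chr9:67049164-67049463) lie wholly inside the gene coordinates given below. So does 1 of the 2 Tpm3 windows (chr3:90079271-90079570). A CArG box was found by letters in 2 of the 10 windows, those of Actg1 and Vcl, while 1.63% of 32851 promoters in the table and 1.31% of 12908 promoters of tested genes hold one. These 2 windows are shown because they hold the box. The windows of Tpm1, Tpm2, Tpm4, Actn1, Actn4 and Flna held none, though these genes were also lower in siPAK4 cells. The window of Acta2, searched for comparison, held none either. Whether the box has a part in the changes was not tested. The Actg1 window lies at chr11:120348446-120348745 on the minus strand and the Vcl window at chr14:20929148-20929447 on the plus strand. Each is written 5′ to 3′ on the gene's strand, with the CArG box in capitals.
Actg1: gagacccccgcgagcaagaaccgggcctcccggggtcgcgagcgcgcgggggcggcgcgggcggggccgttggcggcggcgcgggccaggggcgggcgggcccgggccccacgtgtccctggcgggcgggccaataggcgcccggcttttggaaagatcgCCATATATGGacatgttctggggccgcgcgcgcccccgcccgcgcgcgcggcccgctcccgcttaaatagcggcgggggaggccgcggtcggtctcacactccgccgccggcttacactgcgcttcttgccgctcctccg
Vcl: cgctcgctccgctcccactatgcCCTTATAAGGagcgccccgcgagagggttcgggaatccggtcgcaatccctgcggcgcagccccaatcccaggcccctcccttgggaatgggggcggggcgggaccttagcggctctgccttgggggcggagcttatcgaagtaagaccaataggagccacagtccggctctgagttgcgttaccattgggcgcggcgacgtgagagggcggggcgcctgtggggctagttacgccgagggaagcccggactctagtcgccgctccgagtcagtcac
The capitals span bases -90 to -81 relative to the start in Actg1 and bases -227 to -218 in Vcl, and both boxes read the same on either strand. Other motifs were counted on both strands as well. The TEAD motif CATTCC was present in 4 of the 10 windows, those of Tpm1, Actn4, Flna and Vcl, against 14.7% of all promoters and 12.1% of those of tested genes. The letters TATAAA were in 0 of the 10, against 13.6% of all promoters and 8.38% of those of tested genes. The GC box GGGCGG was in 9 of the 10, all but 1 of the 2 Tpm3 windows, against 35.7% of all promoters and 58.6% of those of tested genes. Such letter matches describe the windows and do not show binding.

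Total counts were 55728583 to 59205049 per siPAK4 library and 57297561 to 61535063 per siControl library. Pak4 averaged 6.32 ± 1.13 CPM (counts scaled to library size) in siPAK4 cells and 17.2 ± 1.14 CPM in siControl cells (SD, n = 4 each), with 5.17 to 7.73 CPM in siPAK4 and 16.2 to 18.6 CPM in siControl libraries (log2 fold change -1.44, adjusted p = 9.40e-06). Markers of the labelled cell type were present at widely different levels. Dcn, the matrix proteoglycan decorin, averaged 479.5 CPM in siPAK4 and 425 CPM in siControl cells and did not pass the test. The collagen genes Col1a1 and Col3a1 averaged 122 and 96.8 CPM in siPAK4 cells and 328 and 207 CPM in siControl cells, and both were lower (log2 fold changes -1.42 and -1.10). Des, desmin, averaged 12.4 CPM in siPAK4 and 17.95 CPM in siControl cells, while Lrat, which makes retinyl esters, had 7 to 22 reads in siPAK4 and 0 to 4 reads in siControl libraries. Over 14 stellate markers, TPM values (scaled to length and library size) summed to 643.6 to 842.6 per siPAK4 library and 688.8 to 823.2 per siControl library, and 5 of the 13 tested were lower and 1, the growth factor gene Hgf, was higher by 0.38 on the log2 scale. Over 16 macrophage markers the sums were 11040 to 15790 TPM in siPAK4 and 18430 to 21200 TPM in siControl libraries, with 9 of the 15 tested markers lower and 0 higher. Lyz2, a lysozyme of myeloid cells, averaged 4849 CPM in siPAK4 and 7815 CPM in siControl cells. The 6 that did not pass were Adgre1 (424.9 CPM in siPAK4 and 385.9 CPM in siControl cells), Cd68 (233.6 and 240.8 CPM), Cd14, Fcgr1, Tyrobp and Timd4. Macrophage markers thus did not all fall. Over 15 endothelial markers the sums were 2923 to 4492 TPM in siPAK4 and 4572 to 4712 TPM in siControl libraries, with 7 lower and 5 higher. Markers of macrophages and endothelial cells thus summed to more than those of stellate cells in every library. Their part in the results below was not tested, and in such bulk samples fewer cells of a type and less RNA per cell cannot be told apart. One library stood apart from the rest: siPAK4 replicate 3 lay at -25.4 on the second principal component (13.3% of variance), against -7.6 to 13.3 for the other 7, and results are given with and without it.

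In siPAK4 cells 9 of the 10 genes were lower, 0 were higher and 1, Tpm3, missed the threshold (edgeR quasi-likelihood test, adjusted p under 0.05 over all tested genes). Over all 17975 genes tested 14.5% were called lower and 12.4% higher, and the median log2 fold change was 0.01, against -0.46 for the 10 genes. Higher genes were 46.1% of all calls, against 67.6% with libraries scaled by their totals alone and 67.9% on log2(FPKM + 1), where 8 and 7 of the 10 genes were lower. All 10 genes but Tpm2 averaged over 100 CPM. Among the 2281 genes averaging 100 CPM or more, 23.6% were called lower and 12.7% higher, with a median of -0.04. In the same 9 genes every siPAK4 library lay below every siControl library, which was so for 14.8% of genes tested. With siPAK4 replicate 3 left out the count lower was again 9.

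**Figure D1:**
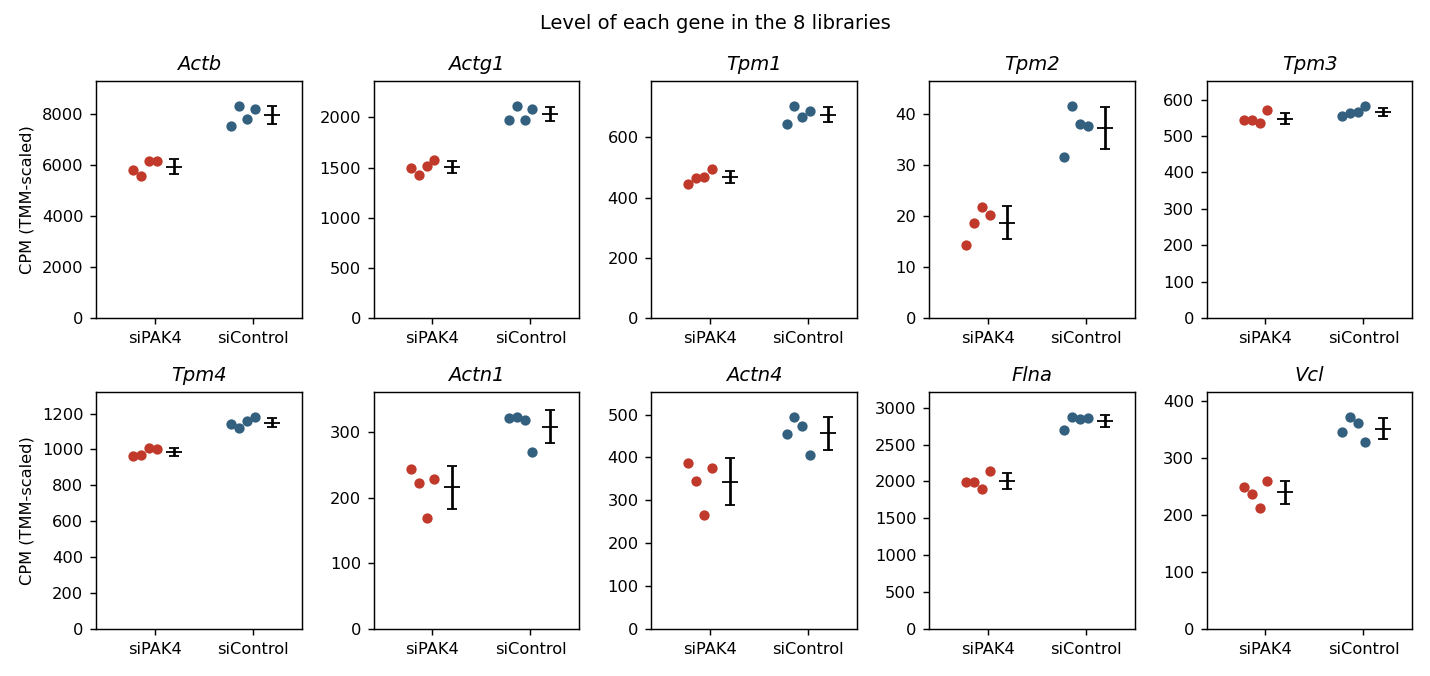
Level of each gene in CPM on the TMM-scaled library size, 1 panel per gene, with a point for each library and the mean ± SD of 4 libraries beside the points; axes start at 0. In 9 panels all siPAK4 points lie below all siControl points, and in the Tpm3 panel the groups overlap.

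Actb, the most abundant of the 10, is NCBI gene 11461 at chr5:142903115-142907976. It had 5813, 5555, 6157 and 6164 CPM in siPAK4 replicates 1 to 4 and 7517, 8281, 7789 and 8189.8 CPM in siControl replicates 1 to 4. The 2 groups were separated by a gap wider than the range within either one. The log2 fold change was -0.42 (SE 0.07, 95% confidence interval -0.58 to -0.27, adjusted p = 0.000918), a level 25.5% lower. Actb reads made up 0.610% ± 0.0197 of all counts in siPAK4 libraries and 0.770% ± 0.0408 in siControl libraries, and the 10 genes together 1.26% ± 0.0300 in siPAK4 and 1.59% ± 0.0628 in siControl libraries. By TPM, Actb ranked 11 to 13 among all genes in siPAK4 libraries and 9 to 10 in siControl libraries.

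Actg1, the gamma-actin gene (NCBI gene 11465, chr11:120345687-120348495), had 1497, 1427, 1517 and 1581 CPM in siPAK4 replicates 1 to 4 and 1971, 2109, 1979 and 2079.7 CPM in siControl replicates 1 to 4. Again no siPAK4 library reached the lowest siControl library. The log2 fold change was -0.43 (SE 0.06, adjusted p = 0.000313), a level 26.0% lower. The 2 cytoplasmic actins kept nearly the same proportion: the log2 ratio of Actg1 to Actb counts averaged -1.98 ± 0.03 in siPAK4 and -1.96 ± 0.02 in siControl libraries (SD, n = 4 each). These ratios overlapped, and the difference of -0.01 did not pass an exact two-sided permutation test (p = 0.60). Per length, Actg1 stood at 0.256 ± 0.00528 of the Actb TPM in siPAK4 and 0.258 ± 0.00403 of it in siControl libraries.

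The transcript of Actg1 is not distinct from those of other genes, and the sources used here do not state how reads that match several genes were counted. Of its 100-base windows, 51.1% occur unchanged in another annotated gene, most of them in the processed pseudogene Gm12715. Reads assigned to Gm12715 averaged 487 ± 20.4 CPM in siPAK4 and 664 ± 26.5 CPM in siControl cells. They amounted to 32.0 to 32.5% of the Actg1 count in siPAK4 libraries and 32.2 to 32.8% in siControl libraries, so the pair moved in near-constant proportion. With both summed, the level was 1992 ± 83.6 CPM in siPAK4 and 2698 ± 96.4 CPM in siControl cells, a log2 difference of -0.44. A near-constant proportion makes this close to that of Actg1 by itself, so the sum does not check how shared reads were counted. Tpm3 shares 45.7% of its windows with Tpm3-rs7, Tpm4 7.64% with Gm7809 and Actb 1.1% with other genes, and the other 6 genes share none.

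The muscle-type actins formed a very small part of the actin mRNA. Acta2 had 34.2, 37.3, 42.1 and 47.8 CPM in siPAK4 replicates 1 to 4 and 98.7, 154, 135 and 114 CPM in siControl replicates 1 to 4. The log2 fold change was -1.63 (SE 0.14, adjusted p = 1.26e-05), 67.8% lower. The log2 ratio of Acta2 to Actb averaged -7.21 ± 0.16 in siPAK4 and -6.01 ± 0.24 in siControl libraries, a difference of -1.20, and the groups did not overlap (exact two-sided permutation p = 0.0286, the smallest that 4 against 4 can give; 0.0343 adjusted over the 6 ratios tested). Acta2 thus fell further than Actb by this test. Without siPAK4 replicate 3 the difference was -1.21 for Acta2 to Actb and 0.004 for Actg1 to Actb. Of the TPM summed over 6 actin isoforms, Acta2 took 0.410% ± 0.0480 in siPAK4 and 0.939% ± 0.159 in siControl cells, Actb 79.3% in siPAK4 and 78.7% in siControl cells, and Actg1 20.3% in each group. The sum itself was 8539 ± 269 TPM in siPAK4 and 11230.0 ± 365 TPM in siControl cells. Actg2, the enteric smooth muscle actin, fell by 1.80 on the log2 scale from low levels (adjusted p = 0.000692). Acta1, the skeletal muscle actin, averaged 0.519 CPM in siPAK4 and 0.209 CPM in siControl cells with overlapping groups (log2 fold change 1.31, adjusted p = 0.10). Without siControl replicate 2 it was called higher, 1 isoform in place of 0. Actbl2 had no read, and Actc1 had 2 reads in 1 siControl library.

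**Figure D2:**
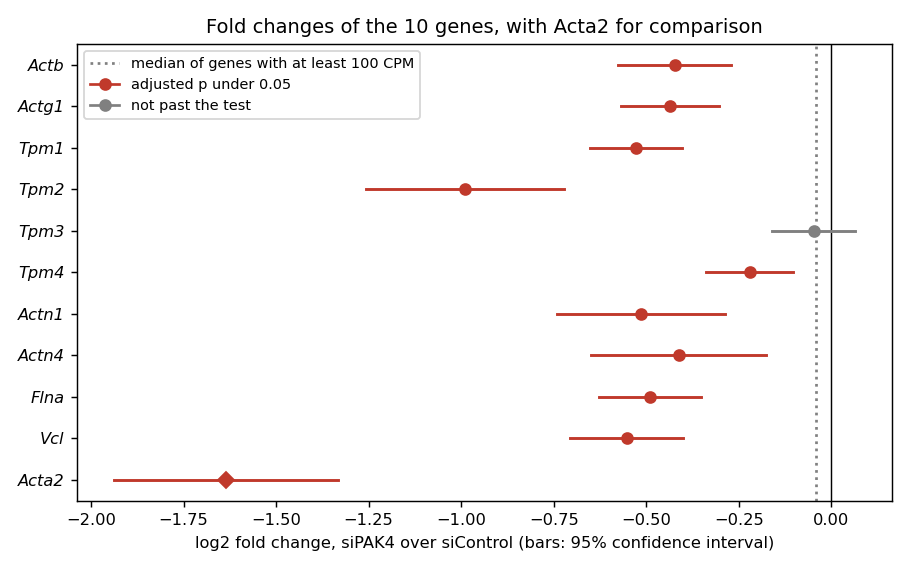
Log2 fold change of siPAK4 over siControl for the 10 genes and Acta2, with 95% confidence intervals; red points passed the test, the grey point did not, and the dotted line is the median of genes with at least 100 CPM (-0.04). Most of the 10 genes lie between -0.4 and -0.6, with Tpm2 and Acta2 further to the left and Tpm4 and Tpm3 nearer to 0.

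The 4 tropomyosin genes did not move alike. Tpm1, the gene of alpha-tropomyosin (NCBI gene 22003, chr9:67022590-67049672), had 445, 467, 468 and 494 CPM in siPAK4 replicates 1 to 4 and 644, 703, 668 and 687 CPM in siControl replicates 1 to 4. Its log2 fold change was -0.53 (SE 0.06, adjusted p = 5.15e-05), 30.7% lower, with no overlap. Tpm2, the beta-tropomyosin gene that is abundant in skeletal and smooth muscle (NCBI gene 22004, chr4:43513726-43523583), had 14.2, 18.7, 21.6 and 20.2 CPM in siPAK4 replicates 1 to 4 and 31.5, 41.4, 38.0 and 37.7 CPM in siControl replicates 1 to 4. It was the lowest expressed of the 10 and had the most negative log2 fold change among them, -0.99 (SE 0.12, 95% confidence interval -1.26 to -0.72, adjusted p = 0.000146), 49.7% lower.

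Tpm4, a mainly non-muscle tropomyosin (NCBI gene 326618, chr8:72135288-72153142), had 965, 969, 1006 and 1005 CPM in siPAK4 replicates 1 to 4 and 1139, 1119, 1160.0 and 1179.9 CPM in siControl replicates 1 to 4. The groups did not overlap, and with a coefficient of variation of 2.25% in siPAK4 and 2.28% in siControl cells a difference of 14.2% stood clear of the spread. The log2 fold change was -0.22 (SE 0.05, 95% confidence interval -0.34 to -0.10, adjusted p = 0.0102). It was not called when libraries were scaled by their totals alone (-0.13, adjusted p = 0.0669) or on log2(FPKM + 1) (-0.13, adjusted p = 0.113).

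Tpm3 (NCBI gene 59069, chr3:90072651-90100902), which gives both muscle and cytoskeletal isoforms, was the gene of the 10 that did not pass the test. It had 544, 543, 535 and 570.3 CPM in siPAK4 replicates 1 to 4 and 554, 563, 567 and 581 CPM in siControl replicates 1 to 4. The groups overlapped, and the log2 fold change was -0.05 (SE 0.05, 95% confidence interval -0.16 to 0.06, adjusted p = 0.55), so a decrease beyond 0.16 on the log2 scale lies outside the interval. The sign changed with the scaling, to 0.04 with library totals alone and 0.05 on log2(FPKM + 1). Summed with Tpm3-rs7 the level was 573 ± 17.0 CPM in siPAK4 and 592 ± 12.2 CPM in siControl cells.

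Ratios within each library, which do not depend on the scaling between libraries, gave the differences among the tropomyosins directly. The log2 count ratio of Tpm3 to Tpm1 averaged 0.23 ± 0.04 in siPAK4 and -0.25 ± 0.04 in siControl libraries (SD, n = 4 each), a difference of 0.48. That of Tpm4 to Tpm1 averaged 1.08 ± 0.04 in siPAK4 and 0.77 ± 0.07 in siControl libraries, a difference of 0.31, and that of Tpm2 to Tpm1 averaged -4.66 ± 0.22 in siPAK4 and -4.19 ± 0.12 in siControl libraries, a difference of -0.47. None of the 3 ratios overlapped between groups, each with an exact two-sided permutation p of 0.0286 and 0.0343 after adjustment over the 6 ratios. Relative to Tpm1, then, Tpm3 and Tpm4 were higher and Tpm2 was lower in siPAK4 cells. Without siPAK4 replicate 3 the 3 differences were 0.49, 0.30 and -0.55, in the same order.

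As shares of the summed tropomyosin TPM, which are per length, Tpm4 held 50.3% ± 0.628 in siPAK4 and 47.5% ± 0.893 in siControl cells, and Tpm3 held 22.1% ± 0.825 in siPAK4 and 18.4% ± 0.257 in siControl cells. Tpm1 held 26.7% ± 0.930 in siPAK4 and 32.6% ± 0.582 in siControl cells, and Tpm2 0.949% ± 0.160 in siPAK4 and 1.54% ± 0.129 in siControl cells. No share overlapped between the groups. The sum was 2052 ± 90.5 TPM in siPAK4 and 2463 ± 7.67 TPM in siControl cells.

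**Figure D3:**
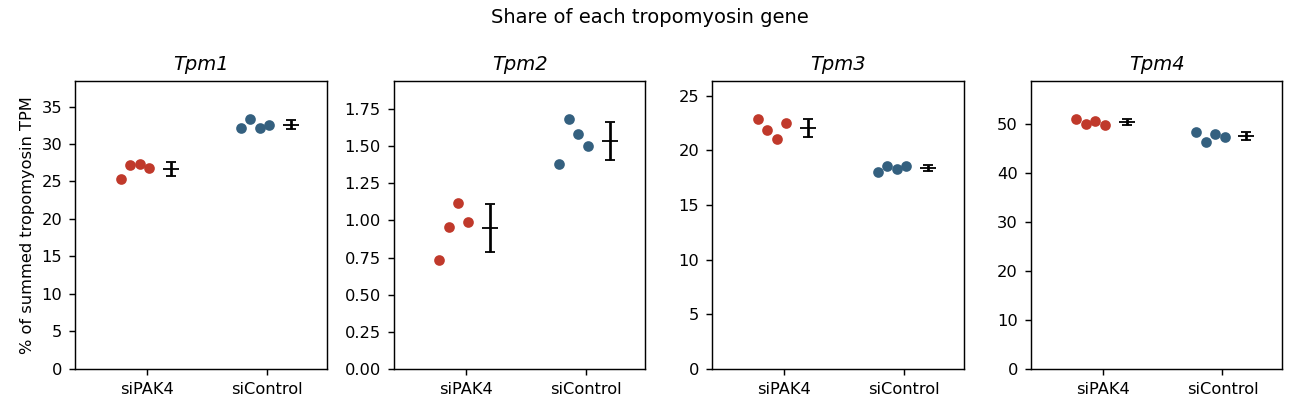
Share of each tropomyosin gene in the summed TPM of Tpm1 to Tpm4, in percent, 1 panel per gene with its own axis from 0, a point for each library and the mean ± SD of 4 libraries. The siPAK4 points lie below the siControl points for Tpm1 (25.3 to 27.3% against 32.1 to 33.4%) and Tpm2, and above them for Tpm3 (21.0 to 22.9% against 18.1 to 18.6%) and Tpm4.

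The alpha-actinin genes were lower and more variable. Actn1 (NCBI gene 109711, chr12:80167542-80260420) had 244, 222, 169 and 228 CPM in siPAK4 replicates 1 to 4 and 321, 323, 318 and 270.3 CPM in siControl replicates 1 to 4. Actn4, whose product also occurs in the nucleus (NCBI gene 60595, chr7:28893248-28962351), had 387, 344, 265 and 375 CPM in siPAK4 replicates 1 to 4 and 454, 494, 474 and 405 CPM in siControl replicates 1 to 4. In both genes siPAK4 replicate 3 was the lowest library and siControl replicate 4 the lowest of its group, yet the groups did not overlap. The log2 fold change was -0.51 for Actn1 (SE 0.10, adjusted p = 0.00364) and -0.41 for Actn4 (SE 0.11, adjusted p = 0.0150), 30.0% and 24.9% lower.

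Without siPAK4 replicate 3 the log2 fold changes were -0.41 for Actn1 (adjusted p = 0.000329) and -0.31 for Actn4 (adjusted p = 0.0035). Without siControl replicate 2 the Actn4 call was lost (-0.37, adjusted p = 0.0509), and it was also lost on log2(TPM + 1), on log2(TPM + 0.1) and on log2(FPKM + 1), with adjusted p from 0.0526 to 0.0729. The log2 count ratio of Actn4 to Actn1 averaged 0.67 ± 0.04 in siPAK4 and 0.57 ± 0.05 in siControl libraries, a difference of 0.10 without overlap (exact two-sided permutation p = 0.0286, 0.0343 adjusted). The fall in Actn4 was thus slightly smaller than that in Actn1, and the difference was also 0.10 without siPAK4 replicate 3.

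Flna (NCBI gene 192176, chrX:74223461-74249854) had 1995, 1988, 1894 and 2145 CPM in siPAK4 replicates 1 to 4 and 2698, 2872, 2847 and 2856 CPM in siControl replicates 1 to 4. Its level was 28.8% lower, and the log2 fold change came to -0.49 (SE 0.06, adjusted p = 0.000175). Vcl (NCBI gene 22330, chr14:20929383-21033676) had 249.8, 237, 212 and 259 CPM in siPAK4 replicates 1 to 4 and 345, 371, 361 and 329 CPM in siControl replicates 1 to 4. It was 31.9% lower, and the log2 fold change came to -0.55 (SE 0.07, adjusted p = 0.000158). Neither gene had overlapping groups. Without siPAK4 replicate 3 the log2 fold changes were -0.47 for Flna and -0.50 for Vcl, and -0.45 for Actb, -0.44 for Actg1, -0.53 for Tpm1, -1.07 for Tpm2, -0.04 for Tpm3 and -0.23 for Tpm4.

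The deviation of siPAK4 replicate 3 was not the same for all 10 genes. Relative to the other 3 siPAK4 libraries its log2 level differed by -0.47 for Actn4, -0.45 for Actn1, -0.23 for Vcl and -0.11 for Flna, by 0.30 for Tpm2 and 0.08 for Actb, and by no more than 0.05 in either direction for Actg1, Tpm1, Tpm3 and Tpm4. The 4 genes lower in it have the longest transcripts of the 10, from 3734 bases for Actn1 to 8456 for Flna. Over 7589 genes averaging 20 CPM or more whose length is known, this difference had a median of 0.11 in the shortest of 4 equal length classes and -0.12 in the longest. It was also 0.08 in the lowest of 4 classes of GC content and -0.09 in the highest, and the part of either in the values of the 10 genes was not tested.

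**Figure D4:**
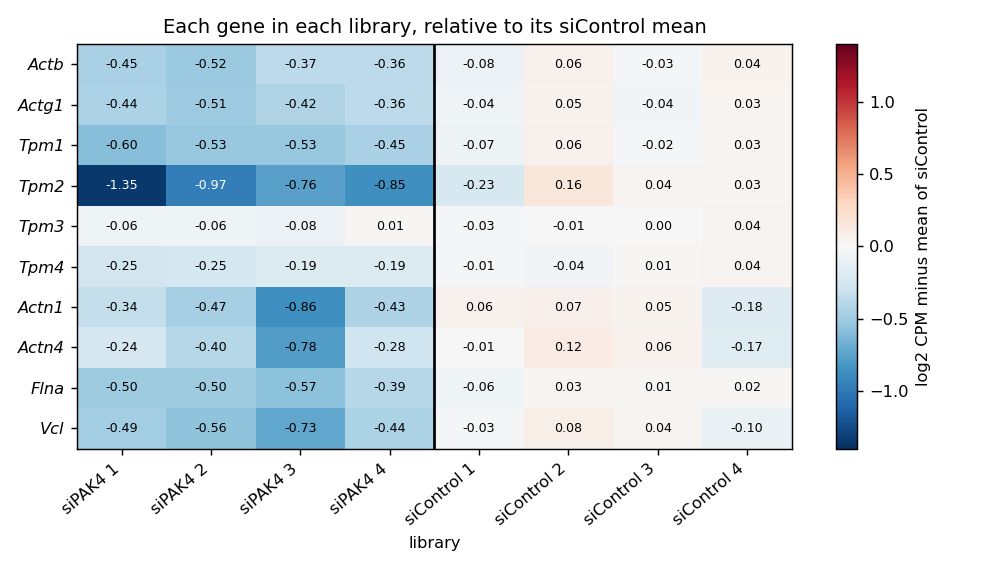
Log2 CPM of each gene in each of the 8 libraries after subtracting its siControl mean, siPAK4 libraries left of the line; colours run from blue (lower) to red (higher). The siPAK4 fields of Actb, Actg1, Tpm1 and Flna hold similar values, Tpm3 stays near 0, and siPAK4 replicate 3 is lowest for Actn1 (-0.86), Actn4 (-0.78) and Vcl (-0.73).

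Ordered by TPM, the levels ran Actb, Actg1, Tpm4, Tpm1, Flna, Tpm3, Actn4, Actn1, Vcl and Tpm2 in both groups. Actb averaged 6770.0 ± 190.5 TPM in siPAK4 and 8845 ± 289.8 TPM in siControl cells, Tpm4 1033 ± 44.7 TPM in siPAK4 and 1171 ± 21.6 TPM in siControl cells, and Tpm2 19.4 ± 2.83 TPM in siPAK4 and 37.9 ± 3.26 TPM in siControl cells. In siPAK4 cells the ranges of Tpm1 and Flna, of Flna and Tpm3, of Actn4 and Actn1, and of Actn1 and Vcl overlapped across libraries, and in siControl cells only those of Actn1 and Vcl among neighbours in the order. Within each library the order was the same in 4 of 4 libraries of each group for every pair of neighbours except Tpm1 and Flna, where Tpm1 was above Flna in 3 of 4 siPAK4 libraries. Tpm1 lay at 546 ± 26.7 TPM in siPAK4 and 802 ± 15.1 TPM in siControl cells, and Tpm3 at 453 ± 32.4 TPM in siPAK4 and 452 ± 6.28 TPM in siControl cells, so the distance between this pair was smaller in siPAK4 cells.

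The 3 genes with profiles most like that of Actb, by the root mean square difference of log2 CPM over the 8 libraries after subtracting each siControl mean, were Mical1 (0.0241), Actg1 (0.0242) and Gm12715 (0.0301), among 7691 genes with a mean of at least 20 CPM. Mical1 encodes an enzyme that oxidises actin filaments. It averaged 42.6 CPM in siPAK4 and 58.1 CPM in siControl cells. Gm12715 is the pseudogene in which 44.4% of the Actg1 windows occur, and it was the gene nearest to Actg1 (0.0118). Its place beside Actb is therefore not independent of that of Actg1. Of the remaining 8 genes Flna was nearest to Actb, at place 51 of 7690, followed by Tpm1 at place 68, while Tpm2 stood at place 6003. Flna and Tpm1 were close to each other (0.0484). The gene nearest to Flna was Tln1 (0.0378), which encodes talin, a partner of vinculin at adhesions, followed by Bend4 (0.0400) and Atf6 (0.0409). Those nearest to other genes were Arhgap19 for Tpm2, Ano10 for Tpm3, Anxa5 for Tpm4, Cdon for Actn1, Abca2 for Actn4 and Frmd4b for Vcl. The measure keeps the difference between groups, so genes of like fold change lie near each other. Whether neighbours share a role was not tested.

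Among other genes that act on actin, the called changes ran mostly downward, with many genes not past the test. Over all genes tested 14.5% were called lower and 12.4% higher, and among genes averaging 100 CPM or more 23.6% and 12.7%. Of the 12 common reference genes treated below, 5 were lower and 1 higher, with a median of -0.17. Whether the actin-related lists differ from these backgrounds was not tested. Of 15 genes for monomer binding and filament turnover, 7 fell, 0 higher and 8 did not pass (median log2 fold change -0.17). Tmsb4x, thymosin beta 4, which holds actin monomers, fell by 0.44 on the log2 scale (adjusted p = 0.00182), Cfl1, cofilin, which severs filaments, fell by 0.24 (adjusted p = 0.00538) and Cap2 by 0.69 (adjusted p = 0.00995). Of 23 nucleators and elongation factors, 6 were lower, 3 higher and 14 did not pass (median -0.11). The formin Diaph3 fell by 0.45 (adjusted p = 0.000518) and Evl by 0.67 (adjusted p = 0.000571), and Arpc5l, an Arp2/3 subunit, was higher by 0.36 (adjusted p = 0.00351). The count of lower turnover genes was 4 without siPAK4 replicate 2, and that of lower nucleators 3 without siPAK4 replicate 4, siControl replicate 2 or siControl replicate 3. Without siPAK4 replicate 3 each of these counts was 8.

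Of 12 genes for filament end capping and tropomyosin partners, 8 fell, 0 were higher and 4 did not pass (median -0.23). Without siPAK4 replicate 2 the count lower was 5. Cald1, caldesmon, which binds actin and tropomyosin together, averaged 212 ± 15.0 CPM in siPAK4 and 358 ± 33.9 CPM in siControl cells and fell by 0.75 (adjusted p = 3.49e-05). The calponin Cnn2 fell by 0.59 (adjusted p = 0.000105) and Cnn1 fell by 1.91 (adjusted p = 0.000107), Cnn1 at under 2 CPM in both groups. Tmod3, a tropomodulin that caps the slow-growing end over tropomyosin, averaged 192 CPM in siPAK4 and 188 CPM in siControl cells and did not pass the test (adjusted p = 0.67).

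Of 29 other crosslinkers and bundlers, 27 were tested, of which 16 were lower, 0 higher and 11 did not pass (median -0.31). Tagln, transgelin, which binds filaments in smooth muscle, averaged 23.4 ± 3.06 CPM in siPAK4 and 74.1 ± 13.4 CPM in siControl cells and fell by 1.67 (adjusted p = 8.24e-06). Pls3, plastin 3, fell by 0.45 (adjusted p = 0.000109) and Flnc, a filamin best known from muscle, by 0.64 (adjusted p = 0.000729). With single libraries left out the count of lower crosslinkers was 12 to 18, lowest without siPAK4 replicate 2 and highest without siPAK4 replicate 3.

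Of 7 PDZ-LIM proteins that bind alpha-actinin, 3 were lower, 0 higher and 4 did not pass (median -0.25). Ldb3 fell by 2.09 (adjusted p = 8.16e-05) from low levels, with 0.450 CPM in siPAK4 and 1.92 CPM in siControl cells. Pdlim4 fell by 0.60 (adjusted p = 0.0127) and Pdlim2 by 0.30 (adjusted p = 0.0250). The Pdlim2 call was lost in 8 of 19 alternative settings, 4 of which left out siPAK4 replicate 2 or 4 or siControl replicate 2 or 4 (adjusted p 0.0563 to 0.0785). Of 10 vinculin partners, 5 were lower, 1 higher and 4 did not pass (median -0.28). Sorbs2, which binds vinculin, fell by 1.09 (adjusted p = 5.49e-05), Tln1 by 0.49 (adjusted p = 0.000174) and Tln2 by 0.56 (adjusted p = 0.000776). Tln1 averaged 755 ± 45.7 CPM in siPAK4 and 1063 ± 44.8 CPM in siControl cells, while Ctnna1, the alpha-catenin that binds vinculin at cell junctions, averaged 705 ± 66.6 CPM in siPAK4 and 744 ± 19.0 CPM in siControl cells (adjusted p = 0.46). The higher gene was Vasp, named after its values were seen, and it was not called without siPAK4 replicate 1, 2 or 4 or siControl replicate 1, 3 or 4 (0 higher in each).

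Of 7 membrane to actin linkers, 3 were lower, 1 higher and 3 did not pass (median -0.07), with Ezr falling by 0.51 (adjusted p = 0.00105), Ank1 by 0.83 (adjusted p = 0.00117) and Msn by 0.36 (adjusted p = 0.0121). Of 6 tested genes among SRF, MRTF and their actin-regulated cofactors, 2 were lower, 0 higher and 4 did not pass (median -0.20). Mrtfa and Mrtfb, the cofactors that actin monomers hold back, fell by 0.43 (adjusted p = 0.0130) and 0.30 (adjusted p = 0.0112). Srf itself averaged 32.8 ± 3.28 CPM in siPAK4 and 33.4 ± 1.97 CPM in siControl cells, with overlapping groups (adjusted p = 0.85). Both MRTF calls were lost on log2(TPM + 1), where 0 of the 6 were lower.

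**Figure D5:**
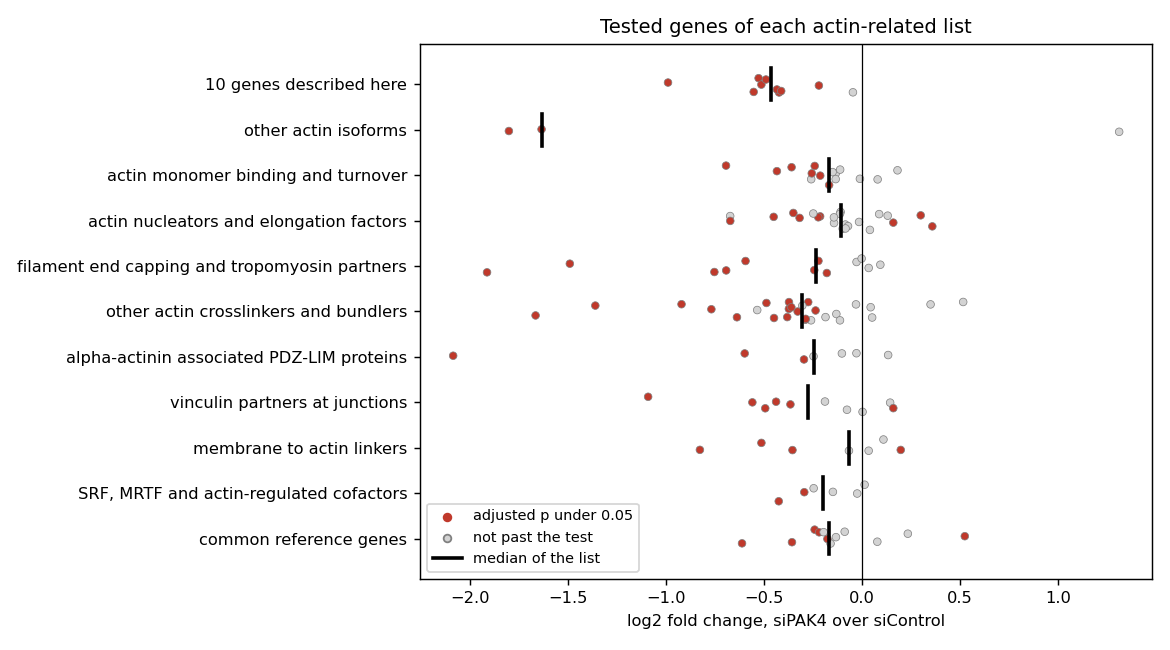
Log2 fold change of siPAK4 over siControl for every tested gene of the 10 genes described and of the other lists, 1 line per list; red points passed the test, grey points did not, and the black bar is the median of the list. The median of the 10 genes is -0.46, that of other crosslinkers -0.31, and the medians of the other actin-related lists, except other actin isoforms (-1.63), lie between -0.28 and -0.07.

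Actb is also widely used as a reference gene in quantitative PCR and as a loading control for protein. Of 12 other common reference genes, 5 fell, 1 was higher and 6 did not pass (median -0.17). Gusb fell by 0.61 (adjusted p = 0.000878), and Gapdh by 0.24 (adjusted p = 0.0253), while Hprt averaged 101 ± 14.7 CPM in siPAK4 and 107 ± 4.32 CPM in siControl cells (adjusted p = 0.50). The count lower depended on single libraries: it was 9 without siPAK4 replicate 3, 3 without siPAK4 replicate 1, 2 without siPAK4 replicate 4 or siControl replicate 3, and 1 without siPAK4 replicate 2 or siControl replicate 2, and without siControl replicate 3 the count higher was 2. Gapdh was not called without siPAK4 replicate 2 or siControl replicate 2 (adjusted p 0.0854 and 0.0827). The choice of reference set how large the Pak4 knockdown appeared. With Actb as the reference 48.8% of the siControl Pak4 signal was left in siPAK4 cells, against 43.1% with Gapdh, 39.0% with Hprt and 56.2% with Gusb.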

How the data were processed

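Polyadenylated RNA was sequenced in 8 libraries, 4 per group, all of 1 batch per the labels. A single deposited table held whole-number read counts, which were tested as the authors deposited them, beside FPKM and TPM values that the authors had scaled for depth and length. The submitters' processing notes name StringTie 2.1.3b, HISAT2 2.1.0 and Bowtie2 2.3.4.1, with build mm10, besides FastQC 0.11.7 and bcl2fastq 2.20.0. Neither the counting step nor its strand setting is stated in the sources used here, so overlapping and near-identical genes are uncertain. No 2 libraries of a group agreed within sampling noise (chi-square per degree of freedom 12.7 to 67.8).

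Genes were kept by filterByExpr of edgeR 4.0.16 (minimum count 10), libraries scaled by TMM and siPAK4 set against siControl with edgeR's quasi-likelihood test (robust, Benjamini-Hochberg over 17975 genes, threshold 0.05). Standard errors came from the F statistic. CPM use the TMM-scaled library size. Ratios of raw counts were tested by exact permutation in SciPy 1.17.1. Alternatives used library totals, DESeq2 1.42.0, limma 3.58.1, other filters, the log2 of TPM or FPKM plus a pseudocount, a replicate block and each library left out. The procedure was tested on simulated counts. Coordinates, counted from 1, and promoters are from RefSeq GRCm38.p6.

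The 10 genes, the 10 other gene lists and the 7 marker lists were chosen with earlier results of these data known. Named beside them were Pak4, Acta2, the 3 called genes lowest in adjusted p in each list (fewer where fewer were called), and the 3 genes most like Actb; some list genes are not reported here. Acta1, Tmod3, Ctnna1, Srf, Hprt, the individual marker genes, the near-identical copies and the profile neighbours of other genes were named after their values were seen. Over hepatocyte markers TPM summed to 221.9 to 336.3 in siPAK4 and 318.8 to 353.6 in siControl libraries (1 lower, 3 higher of 6 tested). The lower one was Trf, which averaged 285.9 CPM in siPAK4 and 362.7 CPM in siControl cells. The higher ones were Alb (7.83 CPM in siPAK4 and 1.75 CPM in siControl cells), Serpina1a (0.631 and 0.106 CPM) and Ahsg (0.633 and 0.172 CPM). The median log2 fold change of the tested hepatocyte markers was 2.02, so their summed TPM and their median went in opposite directions. TPM summed over vascular smooth muscle markers to 35.1 to 53.2 in siPAK4 and 55.3 to 71.1 in siControl libraries (9 lower, 0 higher of 11). Over portal fibroblast and mesothelial markers it summed to 229.4 to 290.3 in siPAK4 and 547.1 to 680.4 in siControl libraries (7 lower, 0 higher of 12). Over lymphocyte and neutrophil markers it summed to 150.0 to 198.9 in siPAK4 and 146.2 to 180.9 in siControl libraries (0 of 4 tested in either direction).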

Additional observations from a re-analysis of the deposited data

Results flagged for a closer look

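Of 36 groups of 4 libraries examined, 4 held a library far from the other 3, and chance flags about 1 in 20 such groups. Actn1 was at 270.3 CPM in siControl replicate 4, against 318.3 to 323.0 CPM in the other siControl libraries. Flna was at 2698 CPM in siControl replicate 1, against 2847 to 2872 CPM in the other siControl libraries. The log2 ratio of Actg1 to Actb was -2.021 in siPAK4 replicate 3, against -1.963 to -1.958 in the other siPAK4 libraries. The same ratio was -1.931 in siControl replicate 1, against -1.977 to -1.973 in the other siControl libraries.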

How the results depend on the processing

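Of the 10 genes, 7 kept their direction and call in all 19 alternatives (Actb, Actg1, Tpm1, Tpm2, Actn1, Flna and Vcl). The count lower was 7 to 9 over all alternatives, and 8 to 9 with single libraries left out, with 0 higher in each. Tpm4 and Actn4 lost their calls as given above, and Tpm3 changed sign to 0.0412 with library totals (adjusted p = 0.5752) and 0.0541 on log2(FPKM + 1) (adjusted p = 0.501), never past the test. Over all genes 2227 were higher and 2605 lower (46.1% of calls higher). With library totals 3877 were higher (67.6%), and on log2(FPKM + 1) 3619 were higher and 1712 lower (67.9%). TMM scaling factors were 1.016 to 1.054 in siPAK4 and 0.958 to 0.978 in siControl libraries. The median log2 fold change was 0.0052 with TMM and 0.0938 with library totals. The cause of these differences was not tested. Single libraries left out gave 1599 to 2496 higher and 1944 to 2998 lower. The log2 ratio differences, given here without a test, then ranged from -0.02 to 0.004 for Actg1 to Actb, -1.28 to -1.12 for Acta2 to Actb, 0.08 to 0.11 for Actn4 to Actn1, -0.55 to -0.37 for Tpm2 to Tpm1, 0.46 to 0.49 for Tpm3 to Tpm1 and 0.28 to 0.33 for Tpm4 to Tpm1. Over all alternatives the counts lower in other lists were 2 to 8 for monomer turnover, 3 to 8 for nucleators, 5 to 8 for end capping, 11 to 18 for other crosslinkers, 0 to 2 for SRF and MRTF and 1 to 9 for reference genes, the 2 for turnover and a 0 for SRF and MRTF being on log2(FPKM + 1).

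Same-numbered libraries of the 2 groups did not deviate together throughout (correlations of deviations 0.103, -0.043, 0.168 and -0.097). With 4 libraries per group such correlations cannot decide whether the numbers pair the samples. With the replicate block 2056 genes were higher and 2531 lower, and 9 of the 10 genes were lower. The least expressed of the 10 genes, Tpm2, had at least 823 reads in every library, and the lowest library total was 55728583 counts.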
